A study of Mus musculus with 6 samples.

Results

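The genes that encode the proteasome were examined in bulk RNA-seq of inguinal white adipose tissue (IWAT), the subcutaneous fat depot of the mouse groin. Genes were taken by symbol, as every *Psma*, *Psmb*, *Psmc*, and *Psmd* gene with a number except *Psmb5*, with at least 10 counts summed over the 6 libraries, together with *Psme1*, *Psme2*, and *Psme4*, which encode proteasome activators, and *Nfe2l1*, which encodes a transcription factor that drives proteasome genes. This gave 41 genes of the 55491 in the deposited table, of which 32664 had a count in at least 1 library and were tested. Of 38 symbols that matched, only *Psmb11*, which encodes a catalytic subunit of thymic epithelium, missed the minimum, with 1, 2, and 1 counts in *Ebf2+/+* and 0, 0, and 5 counts in *Ebf2 E165X/+* IWAT. *Psma8*, which encodes a testis subunit of the alpha ring, was the least abundant gene inside the minimum, with 43, 31, and 47 counts in *Ebf2+/+* and 36, 42, and 50 counts in *Ebf2 E165X/+* IWAT. All 41 genes had at least 10 counts in every library, and the difference between genotypes was no part of the rule.

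IWAT of 4-week-old male C57BL/6J mice on a chow diet was compared between 3 *Ebf2+/+* and 3 *Ebf2 E165X/+* mice, with 1 library per mouse. *Ebf2 E165X/+* mice carry 1 allele of *Ebf2*, a transcription factor of the early B cell factor family, with a nonsense variant that was introduced in the germline by CRISPR/Cas9, so that all cells of the body carry it. Per the study's supplement, the injected eggs came from B6SJLF1 hybrid mice, and founders were then bred to C57BL/6J mice. How many generations of such breeding followed is not given there. *Ebf2*, the gene that carries the variant, had 38.3, 41.3, and 37.2 CPM (counts relative to library totals scaled by the TMM method, on the usual CPM scale) in *Ebf2+/+* and 22.8, 22.9, and 21.1 CPM in *Ebf2 E165X/+* IWAT, without overlap. Library totals were 124927686, 106820505, and 123853070 counts in *Ebf2+/+* and 110850284, 117413441, and 135039488 counts in *Ebf2 E165X/+* IWAT, and proteasome genes took between 0.337% and 0.367% of them. Among the proteasome genes, counts were low only for *Psma8*, and what limits the precision of the others was not tested.

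Proteasomes degrade proteins that have been tagged with ubiquitin. The 20S core is a barrel of outer alpha rings and inner beta rings, and the active sites lie in the beta rings. The 19S regulatory particle caps the barrel, binds and unfolds substrates with its ring of ATPases, and removes ubiquitin, and core and cap together make the 26S proteasome. In leukocytes and in cells exposed to interferon-γ, the catalytic subunits are exchanged for those encoded by *Psmb8*, *Psmb9*, and *Psmb10*, giving the immunoproteasome, whose peptides are presented on MHC class I, and the activator PA28, encoded by *Psme1* and *Psme2*, can cap the core in place of 19S. NFE2L1 (also called NRF1) is held at the endoplasmic reticulum and reaches the nucleus when proteasome activity is short, and in brown adipocytes it is known to sustain proteasome activity during thermogenesis.

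Adipocyte markers were abundant in every library: the 6 genes of that list summed to 10841, 11801, and 9262 CPM in *Ebf2+/+* and 9961, 8556, and 6490.3 CPM in *Ebf2 E165X/+* IWAT, with *Fabp4* the most abundant and none at 0. All 6 had negative log2 fold changes, none with an unadjusted *P* under 0.05 by edgeR and 1, *Fabp4*, by DESeq2 (0.0265), and 2 of them, *Adipoq* (-0.28) and *Lipe* (-0.27), were lower without overlap. Libraries differed in other cell types. The third *Ebf2 E165X/+* library, which had the lowest adipocyte sum, stood apart in skeletal muscle genes, with 8 markers (*Myh4* the most abundant, none at 0) summing to 38879 CPM, or 3.69% of its counts. The other libraries had 1645, 6802, and 2587 CPM (*Ebf2+/+*) and 2831 and 664 CPM (*Ebf2 E165X/+*), and all 8 markers had positive log2 fold changes, none with an unadjusted *P* under 0.05 (edgeR). The first *Ebf2+/+* library had the lowest level of *Ptprc*, which encodes the pan-leukocyte protein CD45, with 335 CPM against 438 to 560 CPM in the others. Fewer cells of a type and less RNA per cell cannot be told apart in bulk tissue.

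The proteasome genes did not pass the test for a difference between the genotypes. None of the 41 genes was called (edgeR's quasi-likelihood test, Benjamini-Hochberg adjusted *P* under 0.05 over all genes tested and a fold change above 1.5), against 3 of 32664 genes tested (0.00918%). *Ebf2* (log2 fold change -0.81) and *Ucp1* (-5.83) were not called by this test either (adjusted *P* = 0.0596 each, edgeR). With DESeq2 their adjusted *P* was 1.23e-13 and 4.87e-18. Missing the call in edgeR thus does not show that the genotypes are alike. DESeq2 gave an adjusted *P* to 40 of the 41 (all but *Psma8*) and called 0 of them, against 98 of 16078 genes with an adjusted *P* (0.61%), and limma-voom called 0 of the 41 and 4 of 32664 (0.0122%). At an unadjusted *P* under 0.05, edgeR gave 1 gene, *Psme1*, which was lower in *Ebf2 E165X/+* IWAT (3.09% of all genes were lower and 1.68% higher by the same rule). DESeq2 and limma-voom each gave the same single gene (4.87% and 5.38% of their tested genes had such a *P*). *Psme1* was also the only one of the 41 whose libraries did not overlap between the genotypes, where 6.78% of 18905 well-counted genes (10 or more counts in each of the 6 libraries) were lower and 6.66% were higher without overlap. When only those 18905 genes were scaled and fitted, *Psma7* and *Psmd9* were lower without overlap as well, making 3 of 41, where 8.1% of the 18905 genes were.

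The median absolute log2 fold change was 0.051 over the 41 genes and 0.12 over the 18905 well-counted genes. The 95% interval of the fold change lay inside 1.5-fold in both directions for 39 of the 41 genes, and for 58% of those 18905 genes. *Psma8*, with its low counts, and *Psme4* were the exceptions. The standard error of the log2 fold change had a median of 0.094 over the 40 genes other than *Psma8* and of 0.15 over the 18905 genes, so that the proteasome genes were also measured more precisely.

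**Figure D1:**
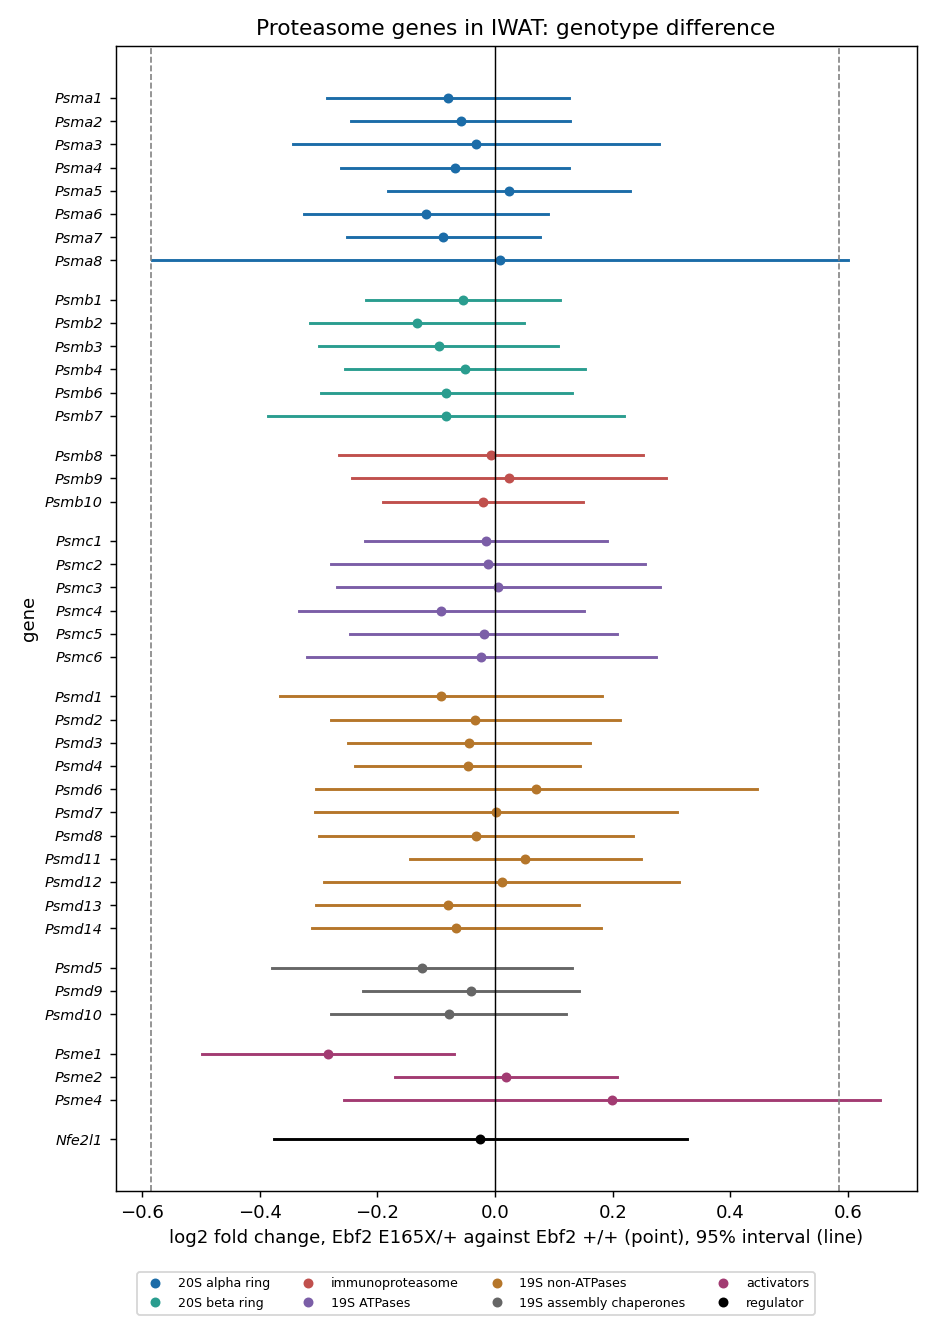
Log2 fold change of each proteasome gene between *Ebf2 E165X/+* and *Ebf2+/+* IWAT (x axis; points) with its 95% interval from edgeR (lines), for 41 genes (y axis) coloured by their role, n = 3 mice per genotype. Dashed lines mark a fold change of 1.5 in either direction, which only the intervals of *Psma8* and *Psme4* cross, and only the interval of *Psme1* leaves out 0.

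Most genes lay slightly below 0: 31 of 41 had a negative log2 fold change, with a median of -0.040, where 43.9% of the 18905 genes were negative and their median was 0.025. With library totals in place of TMM, 18 of 41 genes were negative and the median was 0.010, where 32.6% of the 18905 genes were negative and their median was 0.077. The scaling thus moved both medians alike, by 0.051 and 0.052, and the median of the 41 genes minus that of the 18905 genes was -0.066 with TMM and -0.067 with library totals. Single libraries moved the count more than the background: 22 of 41 were negative without the first *Ebf2+/+* library (45.9% of the 18905 genes), 22 of 41 without the first *Ebf2 E165X/+* library (44.6%), and 37 of 41 without the third *Ebf2 E165X/+* library (47.8%).

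In the 20S core, 13 constitutive subunits were measured besides *Psma8* and the left-out *Psmb5*, and none passed the test. Their median log2 fold change was -0.080 (range -0.13 to 0.024), and 12 were negative, with *Psma5* the exception. The alpha ring, which gates the entry of the barrel, was led by *Psma6* and *Psma7*. *Psma6* had 112.5, 94.3, and 98.3 CPM in *Ebf2+/+* and 90.1, 92.8, and 98.4 CPM in *Ebf2 E165X/+* IWAT, a log2 fold change of -0.12 (SE 0.089, unadjusted *P* = 0.225, edgeR). *Psma7* had 77.7, 69.8, and 71.3 CPM against 67.0, 70.7, and 68.2 CPM, a log2 fold change of -0.088 (SE 0.071). For both genes the first *Ebf2+/+* library was the highest of the 6, and the genotypes overlapped.

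The beta ring held the smallest *P* of the core. All 6 of its constitutive genes had negative log2 fold changes, between -0.13 and -0.051. *Psmb2*, which encodes a structural beta subunit, had 54.4, 52.1, and 46.5 CPM in *Ebf2+/+* and 44.7, 47.4, and 47.4 CPM in *Ebf2 E165X/+* IWAT (log2 fold change -0.13, SE 0.078, 95% interval -0.31 to 0.050, unadjusted *P* = 0.131, edgeR). Its lowest *Ebf2+/+* library lay within the *Ebf2 E165X/+* range, and leaving out that library must widen the difference. When each mouse was left out in turn, the log2 fold change ran from -0.22 (without that library) to -0.099. The unadjusted *P* ran from 0.0276 to 0.312 and the adjusted *P* from 0.804 to 0.908 (edgeR). Without that library, 1735 of all genes had an unadjusted *P* under 0.05 (edgeR). *Psmb3*, another structural subunit, had 60.7, 54.2, and 52.2 CPM against 47.9, 53.6, and 54.9 CPM, which overlapped (log2 fold change -0.096, SE 0.087). *Psmb6* and *Psmb7*, which carry the caspase-like and trypsin-like active sites, had log2 fold changes of -0.083 each. *Psmb5*, which carries the chymotrypsin-like site and is not among the 41 genes, had 72.9, 58.4, and 55.7 CPM against 40.9, 46.5, and 52.0 CPM. Its log2 fold change was -0.42 (SE 0.13, unadjusted *P* = 0.0117, adjusted *P* = 0.783, edgeR), so that it did not pass the test either. *Gm3375*, a near-identical pseudogene, had 0.233, 0.114, and 0.169 CPM in *Ebf2+/+* and 6.54, 6.77, and 7.92 CPM in *Ebf2 E165X/+* IWAT. Its counts were not added to these values of *Psmb5*, and with them the genotypes overlap.

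The 19S cap had a median of -0.023 over 17 genes (range -0.091 to 0.071, 12 negative), and its difference from the core was not tested. The median of the cap was 0.032 without the first *Ebf2+/+* library and -0.11 without the third *Ebf2 E165X/+* library, where that of the core was -0.038 and -0.12. With library totals in place of TMM it was 0.019. Among its 6 ATPases, which form the unfolding ring, *Psmc4* had 71.9, 65.8, and 57.9 CPM in *Ebf2+/+* and 54.9, 63.4, and 65.2 CPM in *Ebf2 E165X/+* IWAT (log2 fold change -0.091, SE 0.10). *Psmc5* had 82.7, 76.1, and 70.9 CPM against 68.1, 75.2, and 83.3 CPM (log2 fold change -0.019, SE 0.098). The genotypes overlapped for both genes. The other ATPase genes had log2 fold changes between -0.023 (*Psmc6*) and 0.0058 (*Psmc3*).

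Of the 11 non-ATPase subunits, 7 were negative and 4 positive, and none passed the test. *Psmd1*, which encodes a scaffold subunit of the base, had 135, 129, and 106 CPM in *Ebf2+/+* and 104, 117, and 126 CPM in *Ebf2 E165X/+* IWAT (log2 fold change -0.091, SE 0.12). *Psmd13*, of the lid, had 84.3, 73.5, and 66.3 CPM against 68.6, 70.9, and 72.4 CPM (log2 fold change -0.081, SE 0.096). In both, the first *Ebf2+/+* library was the highest and the groups overlapped. *Psmd2*, which encodes the scaffold subunit that docks ubiquitin-like domains, *Psmd4*, which encodes a ubiquitin receptor, and *Psmd14*, which encodes the deubiquitinase of the lid, had log2 fold changes of -0.033, -0.047, and -0.066.

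*Psmd6*, of the lid, and *Psmd11*, a lid subunit known to promote 26S assembly, had the largest positive log2 fold changes of the cap, 0.071 (SE 0.16) and 0.052 (SE 0.084). *Psmd6* was high in 1 library only, with 60.2, 56.9, and 51.4 CPM in *Ebf2+/+* and 51.3, 50.2, and 75.5 CPM in *Ebf2 E165X/+* IWAT. Without the third *Ebf2 E165X/+* library, which had the most skeletal muscle transcripts, its log2 fold change was -0.15 (unadjusted *P* = 0.121, edgeR). That of *Psmd11* was then -0.012. The part of muscle in this was not tested.

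The 3 chaperones that assemble the base of the cap were all negative and did not pass the test (median -0.078). *Psmd5* had 43.4, 34.4, and 33.4 CPM in *Ebf2+/+* and 33.8, 35.5, and 32.8 CPM in *Ebf2 E165X/+* IWAT (log2 fold change -0.12, SE 0.11). *Psmd10*, also called gankyrin, had 20.9, 20.3, and 18.4 CPM against 18.7, 19.4, and 18.3 CPM (log2 fold change -0.078, SE 0.086), and *Psmd9* had a log2 fold change of -0.040. The first *Ebf2+/+* library was the highest of the 6 for all 3 genes.

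The genes of the 26S proteasome had a common pattern over the libraries that crossed the genotypes. Relative to each gene's mean in *Ebf2+/+*, the median log2 CPM of its 30 constitutive subunits was 0.12, -0.038, and -0.098 in the *Ebf2+/+* libraries. It was -0.15, -0.067, and 0.059 in the *Ebf2 E165X/+* libraries. The *Ebf2+/+* libraries thus spanned 0.22, where the median log2 fold change between genotypes was -0.049. The first *Ebf2+/+* library was the highest of the 6 for 20 of the 30 genes (66.7%), against 23.3% of the 18905 genes. The first *Ebf2 E165X/+* library was the lowest for 21 of the 30 genes (70%), against 12.8%.

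The first *Ebf2+/+* library was the highest for 11 of 13 core genes (84.6%) and 9 of 17 cap genes (52.9%). The third *Ebf2 E165X/+* library was the highest for 1 of 13 core genes (7.69%) and 8 of 17 cap genes (47.1%), against 23.6% of the 18905 genes, and this difference between core and cap was not tested. The share of all counts that fell on the 30 genes, which amounts to scaling by library totals without TMM, was 0.273%, 0.252%, and 0.244% in *Ebf2+/+* and 0.245%, 0.262%, and 0.264% in *Ebf2 E165X/+* IWAT, so that the genotypes overlapped.

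**Figure D2:**
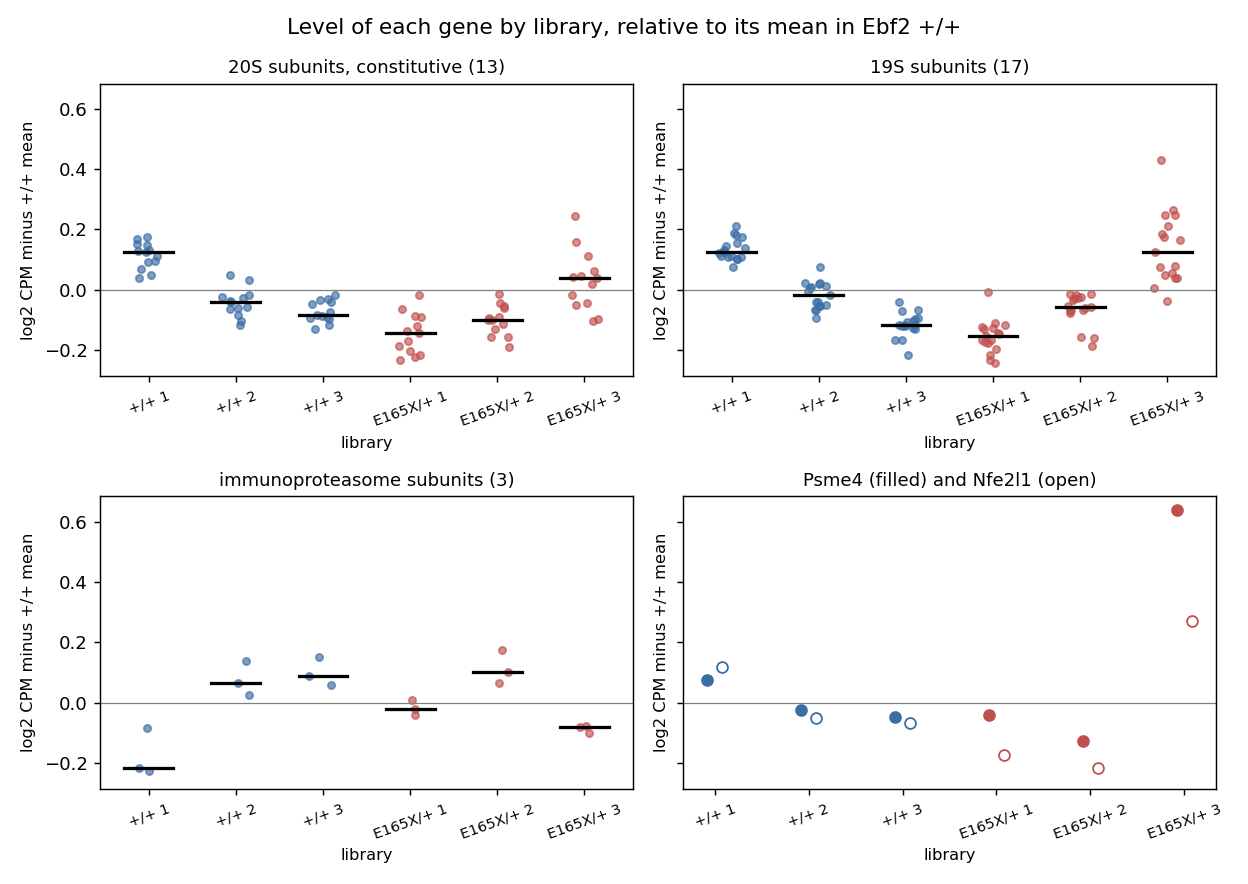
Log2 CPM of each gene minus its mean in *Ebf2+/+* IWAT (y axis) in each of the 6 libraries (x axis; blue, *Ebf2+/+*; red, *Ebf2 E165X/+*), with bars at the median of the 13 core, 17 cap, and 3 immunoproteasome genes. By the medians, core genes are highest in the first *Ebf2+/+* library, and core and cap genes are lowest in the first *Ebf2 E165X/+* library. Cap genes are as high in the third *Ebf2 E165X/+* library as in the first *Ebf2+/+* library (median 0.12 in both). Immunoproteasome genes are lowest in the first *Ebf2+/+* library (median -0.22). *Psme4* and *Nfe2l1* are highest in the third *Ebf2 E165X/+* library.

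The immunoproteasome genes did not differ between the genotypes beyond their spread, and the bounds of their 95% intervals reached 1.22-fold at most. *Psmb8*, whose product takes the place of PSMB5, had 81.1, 104, and 101 CPM in *Ebf2+/+* and 93.5, 102, and 89.8 CPM in *Ebf2 E165X/+* IWAT (log2 fold change -0.0067, SE 0.11, 95% interval -0.26 to 0.25). *Psmb9*, whose product takes the place of PSMB6, had 34.4, 41.8, and 44.5 CPM against 40.3, 45.1, and 37.3 CPM (log2 fold change 0.024, SE 0.11). *Psmb10*, whose product takes the place of PSMB7, had 42.3, 45.6, and 46.7 CPM against 43.5, 46.8, and 42.3 CPM (log2 fold change -0.020, SE 0.073).

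All 3 genes were lowest in the first *Ebf2+/+* library, where the constitutive core was highest (lowest there for 23.9% of the 18905 genes). In that library, *Ptprc* and the summed markers of B cells, T cells, and dendritic cells were also the lowest of the 6. The 5 B cell markers (*Ms4a1* the most abundant) summed to 295, 470.5, and 478 CPM in *Ebf2+/+* and 493, 561, and 519 CPM in *Ebf2 E165X/+* IWAT. The 5 T cell markers (*Cd8a* the most abundant) summed to 172, 221, and 228 CPM against 238, 259, and 223 CPM. The 4 dendritic cell markers (*Ccr7* the most abundant) summed to 62.1, 80.5, and 92.3 CPM against 84.9, 92.0, and 85.9 CPM. The sum of the 5 macrophage markers (*Lyz2* the most abundant) was 1446, 1184, and 1493 CPM against 1487, 1415, and 1566 CPM, and was not lowest there. No gene of these lists was at 0, all 20 genes including *Ptprc* had positive log2 fold changes, and none had an unadjusted *P* under 0.05 (edgeR). Their part in the level of the immunoproteasome was not tested.

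The balance between the immune and the constitutive form of each active site was taken as a log2 ratio of counts within a library. *Psmb8* over *Psmb5* was 0.15, 0.84, and 0.86 in *Ebf2+/+* and 1.19, 1.13, and 0.79 in *Ebf2 E165X/+* IWAT, a mean difference of 0.42. The genotypes overlapped, and the first *Ebf2+/+* library was far below the rest. Without it the mean difference was 0.19. *Gm3375*, a pseudogene that is 98.9% identical to *Psmb5* over 796 bases, had 28, 12, and 21 counts in *Ebf2+/+* and 757, 845, and 1015 counts in *Ebf2 E165X/+* IWAT. When its counts were added to those of *Psmb5*, the mean difference was 0.22, and -0.013 without the first *Ebf2+/+* library.

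The other pairs showed less. *Psmb9* over *Psmb6* was -1.07, -0.60, and -0.50 in *Ebf2+/+* and -0.51, -0.46, and -0.86 in *Ebf2 E165X/+* IWAT (mean difference 0.11). *Psmb10* over *Psmb7* was -1.58, -1.23, and -1.14 against -1.13, -1.07, and -1.56 (mean difference 0.068). The directions rest on single libraries, since both differences were -0.062 without the first *Ebf2+/+* library, and that of *Psmb10* over *Psmb7* was -0.024 without the second *Ebf2 E165X/+* library. In each pair, the lowest ratios were those of the first *Ebf2+/+* and the third *Ebf2 E165X/+* library.

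**Figure D3:**
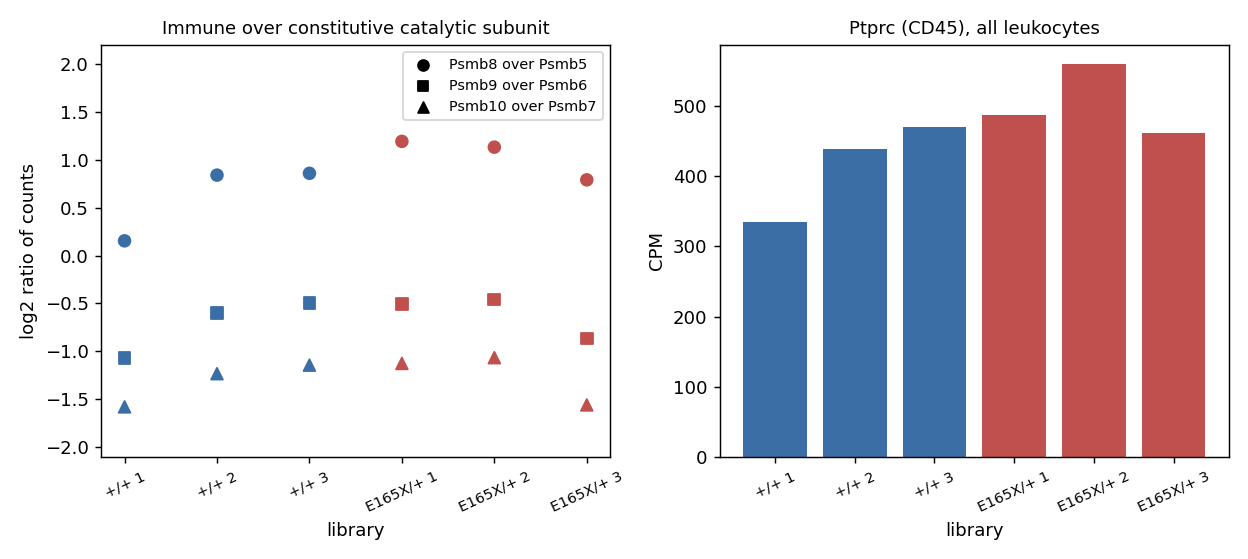
Left, log2 ratio of the counts of each immune catalytic subunit over its constitutive counterpart in each library (y axis; x axis, the 6 libraries; blue, *Ebf2+/+*; red, *Ebf2 E165X/+*). Right, CPM of *Ptprc* in the same libraries (bars). The first *Ebf2+/+* library is lowest in all 3 ratios and in *Ptprc*, at 335 CPM, and the genotypes overlap in each ratio.

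Among the activators, *Psme1*, which encodes the alpha subunit of PA28, had 105, 128, and 117 CPM in *Ebf2+/+* (117 ± 11.9, SD, n = 3 mice) and 94.6, 99.3, and 93.5 CPM in *Ebf2 E165X/+* IWAT (95.8 ± 3.07, SD, n = 3 mice). Every *Ebf2 E165X/+* library lay below every *Ebf2+/+* library. The log2 fold change was -0.28 (SE 0.092, 95% interval -0.50 to -0.070), or 1.22-fold lower, with an unadjusted *P* of 0.0159 and an adjusted *P* of 0.783 (edgeR), so that the gene did not pass the test. The adjusted *P* was 0.260 with DESeq2 and ran from 0.804 to 0.908 when each mouse was left out in turn, and the log2 fold change then ran from -0.37 to -0.22. With library totals in place of TMM, the log2 fold change was -0.23 (unadjusted *P* = 0.0798, edgeR) and the libraries overlapped. Markers of several cell types separated the genotypes in the same libraries. The adipocyte genes *Adipoq* and *Lipe* (log2 fold changes -0.28 and -0.27), the endothelial gene *Cdh5* (-0.27), and the brown adipocyte genes *Ucp1* and *Cidea* (-5.83 and -3.24) were lower without overlap, and 4 of 5 B cell markers were higher (0.33 to 0.39). Their part in the level of *Psme1* was not tested.

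*Psme2*, which encodes the beta subunit that assembles with the alpha subunit in the same ring, overlapped between the genotypes. It had 99.4, 95.5, and 99.2 CPM in *Ebf2+/+* and 97.2, 108, and 92.5 CPM in *Ebf2 E165X/+* IWAT (log2 fold change 0.018, SE 0.081, 95% interval -0.17 to 0.21). The log2 ratio of *Psme1* to *Psme2* counts within a library was 0.073, 0.43, and 0.24 in *Ebf2+/+* and -0.039, -0.12, and 0.016 in *Ebf2 E165X/+* IWAT, without overlap. The mean difference was -0.29 (-0.38 to -0.20 when each mouse was left out), and no test was made for it. This ratio was not among those planned. Since *Psme2* hardly changed, the ratio largely repeats the log2 fold change of *Psme1* (-0.28). *Psme2b*, a coding copy that is 99.4% identical to *Psme2* over 794 bases, had counts equal to 29.5% of those of *Psme2*, so that the level of *Psme2* is uncertain. With the counts of *Psme2b* added, the difference in the ratio was -0.31.

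*Psme1* and *Psme2* are neighbours on chromosome 14, the chromosome of *Ebf2* (GRCm38). *Psme1* lies at chr14:55578123-55581529 on the forward strand and *Psme2* at chr14:55587441-55591113 on the reverse strand, 11.7 and 11.6 Mb from *Ebf2* at chr14:67233292-67430918. *Psmb5* is on the same chromosome, 12.6 Mb from *Ebf2*, and *Psmc6* and *Psmd6*, with log2 fold changes of -0.023 and 0.071, are 21.9 and 53.1 Mb from it. Whether sequence of the hybrid founders remains around *Ebf2* in *Ebf2 E165X/+* mice was not tested. The promoter of *Psme1* (RefSeq, GRCm38.p6) holds letters that match a pair of half-sites of the interferon regulatory factors. These factors drive the immunoproteasome in response to interferon. *Psme1* is shown because it was the only one of the 41 genes with an unadjusted *P* under 0.05 (edgeR), where 4.77% of all genes had one. The match is given with the motif in capitals (the reverse complement of GAAA, any 2 bases, and GAAA). Its sequence, at chr14:55578493-55578522 on the forward strand, with the motif just downstream of the RefSeq start, is:
Psme1: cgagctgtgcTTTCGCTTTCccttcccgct

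Promoters were read from 250 bases before to 50 bases after the RefSeq start, on both strands, and 34 of the 41 genes had one. The letters GAAA, any 2 bases, and GAAA occurred in 4 of the 34 promoters (11.8%), those of *Psmb3*, *Psmd4*, *Psmd9*, and *Psme1*, and in 3.99% of the promoters of 27025 genes. They occurred in none of the 3 immunoproteasome promoters within this window. TCCC, any 2 bases, and GGGA, a palindrome bound by early B cell factors, occurred in 0 of 34 and in 1.06% of 27025. A match of letters is a description and not a binding site.

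*Psme4* encodes PA200, an activator that caps the core and works independently of ubiquitin. It had 150.3, 140.2, and 138 CPM in *Ebf2+/+* and 139, 131, and 222 CPM in *Ebf2 E165X/+* IWAT (143 ± 6.51 against 164 ± 50.8, SD, n = 3 mice each), a log2 fold change of 0.20 (SE 0.20, 95% interval -0.26 to 0.65). The value rests on the third *Ebf2 E165X/+* library, and without it the log2 fold change was -0.085. This is the library with 38879 CPM of skeletal muscle markers, and the part of muscle in it was not tested. *Ecpas*, which encodes an adaptor of the 26S proteasome and was taken from the list of accessory proteins after its values were seen, had the same shape, with 143, 148, and 141 CPM against 141, 128, and 202 CPM.

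**Figure D4:**
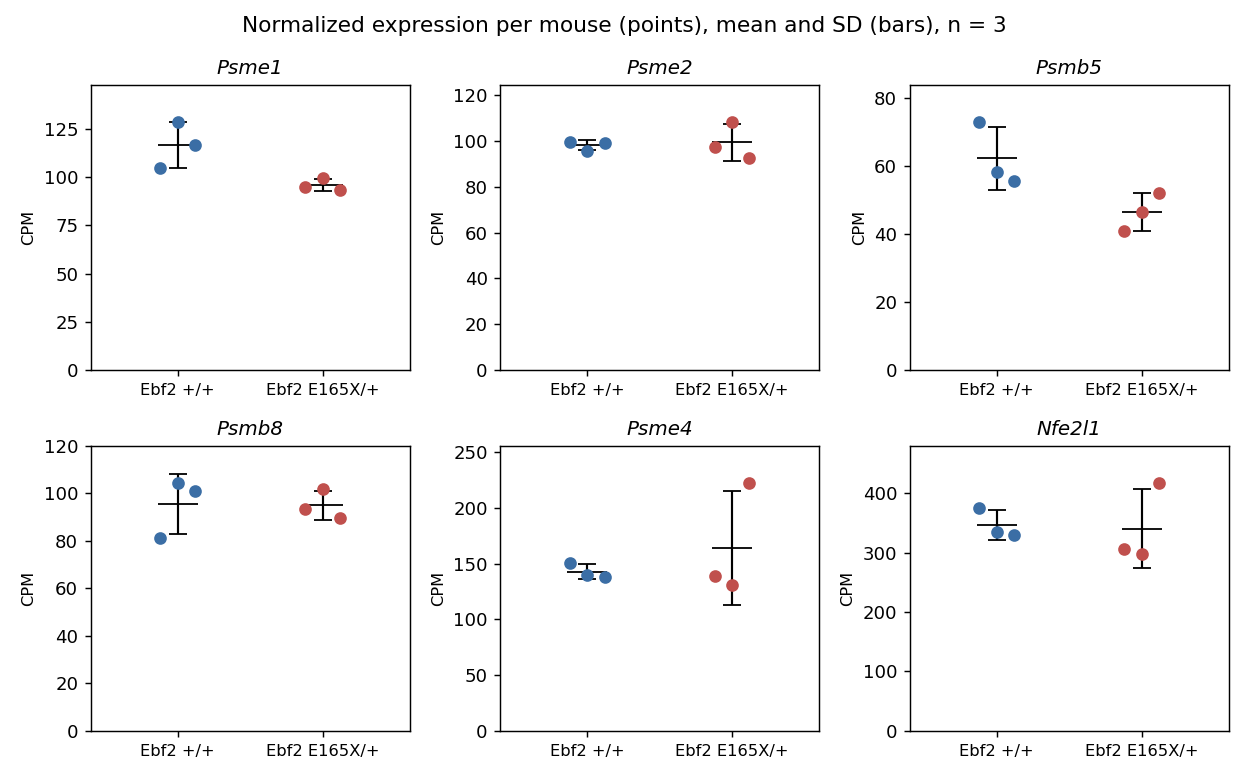
CPM per mouse (y axis; points) with the mean and SD (bars, n = 3 mice per genotype) of *Psme1*, *Psme2*, *Psmb5*, *Psmb8*, *Psme4*, and *Nfe2l1* in *Ebf2+/+* (blue) and *Ebf2 E165X/+* (red) IWAT. *Psme1* and *Psmb5* separate the genotypes, *Psmb5* only without the counts of its near-identical pseudogene *Gm3375*, and *Psme2* and *Psmb8* overlap. *Psme4* and *Nfe2l1* have 1 high *Ebf2 E165X/+* library each, at 222 and 417 CPM.

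The transcript of the regulator did not differ beyond the spread between mice. *Nfe2l1* had 375, 334, and 329.8 CPM in *Ebf2+/+* and 307, 297, and 417 CPM in *Ebf2 E165X/+* IWAT (log2 fold change -0.025, SE 0.15, 95% interval -0.38 to 0.33). Its highest value was again in the third *Ebf2 E165X/+* library, and the other *Ebf2 E165X/+* libraries lay below all 3 *Ebf2+/+* libraries. Without the third library the log2 fold change was -0.20 (unadjusted *P* = 0.106, edgeR), and without it 11 of the 41 genes, *Nfe2l1* and *Psme1* among them, were lower without overlap, where 12.8% of the 18905 genes were. Those were 2 mice against 3, none of the 41 genes was called, and *Psme1* remained the only one with an unadjusted *P* under 0.05.

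Antioxidant response elements, the sites of NFE2L1 and its relative NFE2L2, were looked for in the same promoters as TGACNNNGC. They occurred in 5 of 34 promoters (14.7%) and in 14.0% of 27025, so that the letters were no more common in these windows than elsewhere. The 5 matches are shown with the motif in capitals, since they are where NFE2L1 would be looked for first. All are given on the forward strand of GRCm38.p6, at chr11:70525338-70525366 (*Psmb6*), chr14:45329587-45329615 (*Psmc6*), chr11:107479278-107479299 (*Psmd12*), chr5:123228149-123228177 (*Psmd9*), and chr11:30771758-30771786 (*Psme4*), and those of *Psmc6*, *Psmd12*, and *Psme4* are reverse complements of the letters searched:
Psmb6: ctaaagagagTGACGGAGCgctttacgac
Psmc6: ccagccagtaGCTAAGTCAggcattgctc
Psmd12: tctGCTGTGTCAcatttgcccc
Psmd9: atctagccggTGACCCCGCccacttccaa
Psme4: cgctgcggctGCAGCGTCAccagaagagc
The log2 fold changes of these genes ran from -0.083 (*Psmb6*) to 0.20 (*Psme4*), with -0.023, 0.011, and -0.040 for *Psmc6*, *Psmd12*, and *Psmd9*, and none passed the test.

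Genes that work with the proteasome were taken as 5 lists. Of 53 genes, 52 were found, 0 were called, and 1, *Nfe2l3*, had an unadjusted *P* under 0.05 (edgeR, against 4.77% of all genes in either direction). In sign, 27 were higher and 25 lower. The axis of NFE2L1 and NFE2L2 had 17 genes, among them *Nfe2l3*, which encodes a relative of both. *Nfe2l3* had 1.299, 2.13, and 2.11 CPM in *Ebf2+/+* and 1.43, 1.10, and 1.05 CPM in *Ebf2 E165X/+* IWAT, which overlapped (log2 fold change -0.62, SE 0.26, unadjusted *P* = 0.044, edgeR). *Mafk*, which encodes a small MAF partner of these factors, had 22.03, 24.7, and 27.7 CPM against 26.5, 28.8, and 34.7 CPM (log2 fold change 0.28, SE 0.13), with overlap. *Ddi2*, which encodes the protease that releases NFE2L1, was higher without overlap and did not pass the test (log2 fold change 0.12, SE 0.068).

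In the remaining lists no gene had an unadjusted *P* under 0.05. Of the 6 genes for assembly and inhibition of the core, *Psmg1*, an assembly chaperone, had 16.8, 16.2, and 14.1 CPM against 13.6, 14.2, and 13.05 CPM (log2 fold change -0.20, SE 0.10). *Psmg4*, of the same family, was lower without overlap, with 5.45, 5.37, and 6.10 CPM against 5.06, 5.04, and 5.27 CPM (log2 fold change -0.14, SE 0.13). Among 12 accessory genes, *Sem1*, a small lid subunit, had 43.6, 51.9, and 40.0 CPM against 35.8, 35.6, and 43.4 CPM (log2 fold change -0.24, SE 0.12). *Ubqln1*, which encodes a shuttle of ubiquitylated proteins, had 242, 218, and 207 CPM against 209.97, 206, and 185 CPM (log2 fold change -0.15, SE 0.099). Both overlapped between the genotypes. Among 13 genes of antigen processing, which share their interferon control with the immunoproteasome, log2 fold changes ran from -0.094 to 0.18. *Irf8*, an interferon regulatory factor of myeloid and B cells, had 82.4, 91.2, and 102 CPM against 102, 103, and 107 CPM (log2 fold change 0.18, SE 0.092). *Nlrc5*, an activator of MHC class I genes, had 56.6, 73.2, and 75.8 CPM against 75.5, 81.2, and 67.7 CPM (log2 fold change 0.13, SE 0.13). Both were lowest in the first *Ebf2+/+* library. *Tap1*, which encodes the peptide transporter and overlaps the locus of *Psmb9*, had a log2 fold change of 0.073. The last list held 4 genes of ubiquitin and of the E1 enzymes that activate it, with log2 fold changes from -0.083 to 0.049. *Uba1*, the main E1 enzyme, had 306, 277, and 260.3 CPM against 256, 282, and 257 CPM (log2 fold change -0.083, SE 0.10), and *Uba6*, the other E1 enzyme, had 33.8, 37.2, and 34.7 CPM against 37.3, 36.5, and 35.2 CPM (log2 fold change 0.043, SE 0.069). Both overlapped between the genotypes.

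Levels can be set beside each other per kilobase of the principal transcript, with the reservation that sources differ on whether these were 3′ libraries, in which counts do not grow with transcript length. In *Ebf2+/+* IWAT, the core genes other than *Psma8* had 27.6 (*Psma2*) to 97.6 (*Psma6*) CPM per kb, and the cap genes 24.1 (*Psmd11*) to 69.9 (*Psmd4*). The chaperones of the base were lower, with 7.42 to 13.9 CPM per kb. *Psme1* and *Psme2* were at 105 and 102 CPM per kb, above the core genes. Without division by length, *Psme1* (117 CPM) was above all 14 core genes and *Psme2* (98.0 CPM) below 5 of them, *Psmb7* (112 CPM) the highest. *Psmb8*, *Psmb9*, and *Psmb10* were at 58.6, 29.8, and 34.2 CPM per kb, and *Psma8* was at 0.203 CPM per kb.

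Some of these counts could be shared with other loci. Copies at least 95% identical over at least 200 bases had counts for 8 of the 41 genes, at most 2.29% of the gene's own in single copies of *Psma3*, *Psma4*, *Psma5*, *Psmb3*, *Psmc1*, and *Psmd2*. For *Psmd11* the counts of *A730017L22Rik* came to 11.3% of its own. *Psmb7*, *Psmb9*, *Psmd1*, and *Psmd13* overlap *Nek6*, *Tap1*, *Gm21972*, and *Sirt3*, and it was not stated whether counting used the strand. With the counts of copies added to the genes, none was called, *Psme1* remained the only one with an unadjusted *P* under 0.05, and 31 of 41 log2 fold changes were negative.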

How the data were processed

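RNA-seq libraries of IWAT, 1 per mouse, were grouped by the genotype in their labels. The authors deposited expected counts per gene, with no normalization for library size. Per the labels and the submitters' processing notes, libraries were made with an NEB kit and processed with cutadapt 4.8, STAR 2.7.8a, and RSEM 1.3.3 on GRCm38, with the role of each tool not given in the sources used here, while the study's methods describe 3′ libraries and a later annotation. All 332946 values were whole numbers, so rounding changed none. All 6 columns belong to samples.

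Genes with at least 1 count were fitted in edgeR 4.0.16 (R 4.3.3) with TMM factors and genotype as the only term, and *P* values were adjusted over all 32664 genes. CPM in log form had a prior count of 2. The test recovered 100 of 100 genes simulated for this comparison among 31698 at a log2 fold change of 2, and 57 of 100 at 1. Of the genes simulated without a change, 7 passed. Here passing meant an adjusted *P* under 0.05, without the threshold on the fold change. The changed genes were drawn from abundant genes only. Changes as small as those of the proteasome genes were not simulated. Nothing in the labels says whether mice shared a litter, so *P* values measure the spread between these samples.

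Genes, lists, and markers were chosen with earlier results of these data known. Values per library are given for the regulator, the immunoproteasome, the activators, the 2 genes with the smallest *P* in every other group or partner list, and the most extreme changes. *Psmd6* and *Psmg4* were added after their values were seen, as were *Psmd11*, *Ddi2*, and *Tap1*. The ratio of *Psme1* to *Psme2* was not among the ratios planned. Alternatives were DESeq2 1.42.0, limma-voom (limma 3.58.1), DESeq2's size factors, library totals, stricter count filters, a replicate block, and each mouse left out. Adding the counts of near-identical copies, found with blastn 2.17.0 in GENCODE M21 (GRCm38), was chosen after seeing the data. Some genes of the partner lists are not reported here and were left out of the counts.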

Additional observations from a re-analysis of the deposited data

How the results depend on the processing

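None of the 41 genes and none of the 52 partner genes was called under any alternative run (counts of copies were added for the 41 genes only), and the log2 fold change of *Psme1* was negative in all of them. DESeq2 called 98 genes in all, against 3 with edgeR. With library totals in place of TMM, 6 genes were called in all. An unadjusted *P* under 0.05 was then found for 0 of the 41 genes and for 1425 of all genes (edgeR). Without overlap, 0 of the 41 were lower and 1 (*Psmd11*) was higher, where 3.88% of the 18905 genes were lower and 9.12% higher. This scaling raised the median log2 fold change of the 18905 genes by 0.052 and that of the 41 genes by 0.051. Negative log2 fold changes then numbered 18 of 41, against 31 with TMM, where the share over the 18905 genes was 32.6% against 43.9%, and among genes given with values per library those of *Nfe2l1* (0.017), *Psmb8* (0.046), *Psmb10* (0.033), and *Psmc5* (0.029) turned positive. The medians were 0.0006 for the constitutive 26S subunits, 0.019 for the cap, 0.046 for the immunoproteasome, and 0.074 for the activators. The cause of the differences in calls was not tested. *Psmb8* was at 0.0012 with limma-voom, and *Psme2* at -0.0029 when a minimum of 10 counts was required of each library, where 3 of the 41 genes were lower without overlap (8.1% of the 18905 genes).

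When each mouse was left out in turn, calls over all genes ran from 1 to 11, the 41 genes had 1 to 2 with an unadjusted *P* under 0.05, and the partner genes 0 to 5, against 1 with all mice. Over all genes, 1051 to 1758 then had such a *P*, against 1557 with all mice (edgeR). Between 1 and 11 of the 41 genes were then lower without overlap and 0 to 2 higher, where 10.8% to 14.5% of the 18905 genes were lower and 9.79% to 14% higher. Without the third *Ebf2 E165X/+* mouse 11 were lower (12.8% of the 18905 genes), and without the third *Ebf2+/+* mouse 10 (14.5%). Median log2 fold changes ran from -0.12 (without the third *Ebf2 E165X/+* mouse) to 0.0025 (without the first *Ebf2+/+* mouse) for the constitutive 26S subunits, and from -0.11 to 0.032 without the same mice for the cap. They ran from -0.14 (without the third *Ebf2+/+* mouse) to -0.036 (without the first *Ebf2 E165X/+* mouse) for the core, and from -0.092 (without the first *Ebf2+/+* mouse) to 0.041 (without the second) for the immunoproteasome. Those of the chaperones of the base ran from -0.15 to -0.021 and those of the activators from -0.085 to 0.033. Mean differences of the log2 ratios ran from 0.19 to 0.54 for *Psmb8* over *Psmb5*, from -0.062 to 0.24 for *Psmb9* over *Psmb6*, and from -0.062 to 0.22 for *Psmb10* over *Psmb7*, alternatives chosen after seeing the data. Of the 41 genes, 22 took both signs, and the other 19 were negative each time. Among the 22, with values per library given, were *Nfe2l1* (-0.20 to 0.064), *Psmb8* (-0.13 to 0.051), *Psmb9* (-0.092 to 0.086), *Psmb10* (-0.076 to 0.011), *Psmc5* (-0.095 to 0.050), *Psmd6* (-0.15 to 0.17), *Psme2* (-0.048 to 0.067), and *Psme4* (-0.085 to 0.34).

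Same-numbered mice did not deviate together (correlations 0.15, -0.28, and -0.16), so the replicate numbers do not pair the mice. A block for the replicate number left 1 of the 41 genes with an unadjusted *P* under 0.05 (*Psme1*, log2 fold change -0.28, unadjusted *P* = 0.0210 from edgeR). It gave 2 calls over all genes and 2 partner genes with an unadjusted *P* under 0.05, and moved *Psmb8* to 4.44e-05. With this block, 1281 of all genes had such a *P*.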

Other observations

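Marker lists of other cells of the depot are given here as values. The 5 brown and beige adipocyte markers, led by *Cidea*, summed to 136, 186, and 186 CPM in *Ebf2+/+* and 32.0, 37.0, and 61.6 CPM in *Ebf2 E165X/+* IWAT, without overlap. All 5 had negative log2 fold changes, 3 had an unadjusted *P* under 0.05, and 1, *Cidea*, was called (edgeR). The 5 stromal progenitor markers, led by *Col1a1*, summed to 6419, 4749, and 6165 CPM against 6258, 6102, and 6167 CPM. The 3 endothelial markers, led by *Pecam1*, summed to 923, 922, and 838 CPM against 839.9, 852, and 657 CPM, lowest in the third *Ebf2 E165X/+* library, and all 3 had negative log2 fold changes, none with an unadjusted *P* under 0.05 (edgeR). The 3 erythroid markers, led by *Hbb-bs*, summed to 1938, 1338, and 2101 CPM against 2892, 1616, and 1244 CPM. None of these lists had a gene at 0.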
